A study of Mus musculus with 4 samples.

Results

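Matrix metalloproteinases (MMPs) and their tissue inhibitors (TIMPs) were followed in the mouse fibroblast cell line NIH-3T3 exposed to small molecules that activate chaperone-mediated autophagy (CMA). The set comprised 10 genes, Mmp2, Mmp3, Mmp9, Mmp10, Mmp11, Mmp13, Mmp14, Timp1, Timp2 and Timp3, and was taken as every gene probe whose accession maps to 1 of these symbols. It held 12 probes of 55681 on the array and 10 of 36838 gene names, and each of the 12 probes had a value on all 4 arrays. Total RNA was measured on 4 one-colour Agilent mouse arrays, with 1 array per group. The compounds bind retinoic acid receptor α, and the arrays addressed which transcripts differ in their presence. The control culture carried a label of no treatment, and confluent cultures of the same wild-type line received 20 µM of AR7, CA39 or CA77 for 24 h. The compounds were dissolved in DMSO and the label of the control names no vehicle, so vehicle and compound cannot be told apart in what the 3 treated cultures share. No group had a replicate. Every difference below is therefore between 2 arrays, with no replicate check, no test and no p-value.

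MMPs are zinc-dependent endopeptidases, made as inactive precursors, that cut collagens, other matrix proteins and proteins at the cell surface. Mmp2 and Mmp9 are the gelatinases, Mmp3, Mmp10 and Mmp11 are called stromelysins, Mmp13 is a collagenase, and Mmp14 is a membrane-anchored enzyme that also activates pro-MMP2. TIMPs are secreted inhibitors that block the active site of MMPs, and Timp3 differs from the others in binding to the extracellular matrix and in also inhibiting some ADAM and ADAMTS proteases. Fibroblasts are a main source of both groups in connective tissue, and transcription of several MMP genes is known to depend on AP-1, the dimers of Fos and Jun proteins.

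Levels are log2 normalized signals of a probe, and a difference is the log2 level on 1 array minus that on another. A probe was called detected where the scanner software found more than 50% of its spots well above background. Levels of different probes cannot be set against each other, so each gene was compared with itself across arrays. The error within an array came from 399 probes printed 10 times. Their spots had a median SD between 0.09 (CA39) and 0.12 (untreated and AR7) on the log2 scale. From this a difference of 2 arrays was given a tolerance of 0.16, which is 1 SD of a difference between single spots. Unchanged probes can therefore lie outside it by spot noise alone. Near the level of Mmp10 it was wider, 0.19 for AR7 and 0.24 for CA39 against untreated. This tolerance holds no variation between cultures.

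The arrays were close in brightness, with a median net signal between 138 and 167.5 scanner units, and 0 spots were saturated. Detected probes made up 69.7% of the untreated array and 52.2% to 61.6% of the treated arrays. Control and treated cultures lay in different rows of the slide, which therefore cannot be told apart from treatment, and CA77 was read in a later scan than the other arrays. Of the fibroblast markers, 7 of 8 were detected on all 4 arrays. Markers of other cell types were detected on all 4 arrays too. These were 2 of 4 epithelial (Krt8 and Krt18), 3 of 3 endothelial (Kdr, Pecam1 and Cdh5) and 1 of 3 macrophage and leukocyte markers (Csf1r). They also included 1 of 3 adipocyte (Fabp4) and 2 of 3 muscle markers (Des and Myod1), while Cdh1 and Adipoq were detected on no array. Kdr counts by its brighter probe, since a second, printed 10 times, was detected on no array (log2 5.49 to 5.73).

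Of the 10 genes, 6 were detected on all 4 arrays (Mmp2, Mmp11, Mmp14, Timp1, Timp2 and Timp3). Mmp9 and Mmp10 were detected on the untreated, AR7 and CA77 arrays and not with CA39. Mmp3 and Mmp13 were detected on no array, which left 8 genes to compare. CA39 had a Timp3 level 20.5-fold above untreated and an Mmp9 signal that was not well above background. AR7 had Mmp9 and Mmp10 past 2-fold above untreated, and CA77 had no member past 2-fold.

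**Figure D1:**
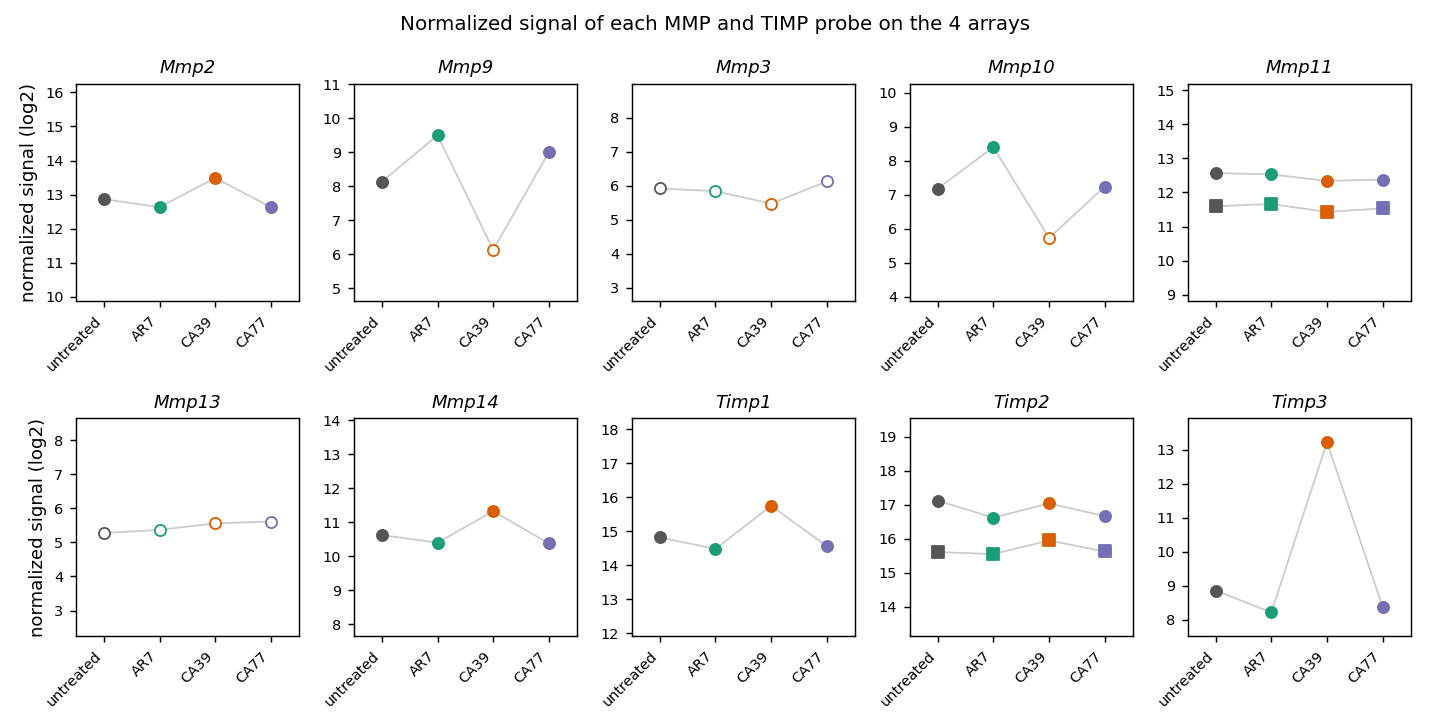
Normalized signal (log2, vertical axis) of each MMP and TIMP probe on the untreated, AR7, CA39 and CA77 arrays, with filled symbols for detected probes, open symbols for probes not well above background and squares for the second probe of Mmp11 and Timp2. Timp3 stands at 13.22 with CA39 and between 8.22 and 8.86 on the other arrays, while Mmp9 and Mmp10 are lowest with CA39 and highest with AR7.

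Promoter windows are shown for the stromelysin and collagenase genes of chromosome 9, to set Mmp10, which differed between arrays, beside Mmp3 and Mmp13, which were not detected, and for Timp3, which had the largest difference. RefSeq promoter sequences of mouse assembly GRCm38.p6 were found for 8 of the 10 genes, and no window is shown for Mmp2 and Mmp9. Each line holds the 100 bases before the annotated start, on the strand of the gene. Capitals mark the AP-1 motif TGANTCA and the TATA box TATAAA in the first 3 windows, and the GC box GGGCGG on the opposite strand in the Timp3 window.
Mmp10, chr9:7502242-7502341, plus strand: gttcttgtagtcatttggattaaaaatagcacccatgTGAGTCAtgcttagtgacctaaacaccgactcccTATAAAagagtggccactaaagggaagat
Mmp3, chr9:7445722-7445821, plus strand: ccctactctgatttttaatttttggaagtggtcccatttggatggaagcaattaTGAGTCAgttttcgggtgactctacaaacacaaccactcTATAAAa
Mmp13, chr9:7272414-7272513, plus strand: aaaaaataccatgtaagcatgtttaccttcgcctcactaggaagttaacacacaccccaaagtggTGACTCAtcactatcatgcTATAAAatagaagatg
Timp3, chr10:86300312-86300411, plus strand: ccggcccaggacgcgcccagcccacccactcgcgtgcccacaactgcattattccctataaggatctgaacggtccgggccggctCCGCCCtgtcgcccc
In windows of 300 bases (250 before and 50 after the start), searched on both strands, TGANTCA was found in 3 of the 8 members with a window, Mmp3, Mmp10 and Mmp13, and in 7.81% of all 32851 windows. Its first base lay at -46 in Mmp3, -63 in Mmp10 and -35 in Mmp13. The same 3 genes held TATAAA, which 13.6% of all windows hold. AGGTCA, the half-site bound by retinoic acid receptors, was found in Mmp10 alone of the 8, on the minus strand at -49, and in 16.3% of all windows. The other 5 members, Mmp11, Mmp14 and the 3 TIMP genes, held GGGCGG, as did 35.7% of all windows. None of the matches in a member overlapped a match of another motif. GC content of the 300 bases was between 37.7% (Mmp10) and 43.7% (Mmp13) in the first group and between 55.0% (Timp1) and 68.7% (Timp2) in the second. A match is a description of the letters and no evidence of binding.

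The inhibitors were described first. Timp3 had, from 1 spot per array, a log2 level of 8.86 on untreated, 8.22 with AR7, 13.22 with CA39 and 8.38 with CA77. In net signal this was 486.5, 341.5, 9789 and 305 scanner units. CA39 stood alone above the other 3 arrays, untreated came next, and AR7 and CA77 were lowest and 0.16 apart, within the tolerance. The difference from untreated was 4.36 with CA39, the 9th highest among 21393 genes measured on both arrays. With AR7 it was -0.64 (1.56-fold lower) and with CA77 -0.49 (1.40-fold lower), both outside the tolerance. Gene spots around the Timp3 probe had a median difference of -0.02 with CA39, so the value was not shared by its neighbourhood on the array. More RNA per cell and more cells with this RNA cannot be told apart in bulk cultures, here and for the other members.

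Timp1, an inhibitor of most soluble MMPs that binds pro-MMP9, had log2 levels of 14.82 on untreated, 14.49 with AR7, 15.75 with CA39 and 14.57 with CA77. It was highest with CA39, at 0.93 above untreated (1.91-fold), just under the threshold of 2-fold. It was 0.33 lower than untreated with AR7 and 0.25 lower with CA77 on the log2 scale. The order of the arrays was that of Timp3, and AR7 and CA77 again did not differ beyond the tolerance.

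Timp2, which inhibits MMPs and also takes part in activation of pro-MMP2 by Mmp14, was read by 2 probes that disagreed. The brighter probe gave 17.12 on untreated, 16.62 with AR7, 17.05 with CA39 and 16.67 with CA77. A second probe gave 15.61, 15.56, 15.95 and 15.63 in the same order. By the first probe Timp2 was lower with AR7 (-0.50) and CA77 (-0.46) and within the tolerance with CA39 (-0.08). By the second it was within the tolerance with AR7 (-0.05) and CA77 (0.02) and higher with CA39 (0.34). CA39 stood above AR7 by a like amount with each probe, 0.42 and 0.40. The direction from untreated with CA39 also turned with the processing (-0.15 to 0.13 over the alternatives).

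Among the gelatinases, Mmp9 had repeated measurements, since its probe was printed 10 times. Its log2 level was 8.14 ± 0.14 on untreated (SD over 10 spots, range 7.91 to 8.28), 9.50 ± 0.16 with AR7 (9.15 to 9.66), 6.14 ± 0.25 with CA39 (5.80 to 6.52) and 9.0 ± 0.07 with CA77 (9 spots used, 8.91 to 9.11). The mean net signal was 305.75, 794.05, 90.65 and 460.4 scanner units, respectively. No spot used on an array reached the range of another array, so the order was AR7, CA77, untreated and CA39. With CA39, 0 of 10 spots were well above background, and on each of the other arrays all 10 were.

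Mmp9 was 1.36 above untreated with AR7 (2.57-fold) and 0.87 above it with CA77 (1.82-fold). With CA39 it was at least 2.40-fold lower, a bound set by the 1st percentile of detected signal on that array (log2 6.88), since the probe itself lay under it. With the lowest detected signal as the floor the bound was -1.93 in place of -1.26 (log2). With a background offset of 50 it was -0.99, under the threshold. Gene spots around each Mmp9 spot had median differences that averaged between -0.02 and -0.01 with the 3 compounds.

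**Figure D2:**
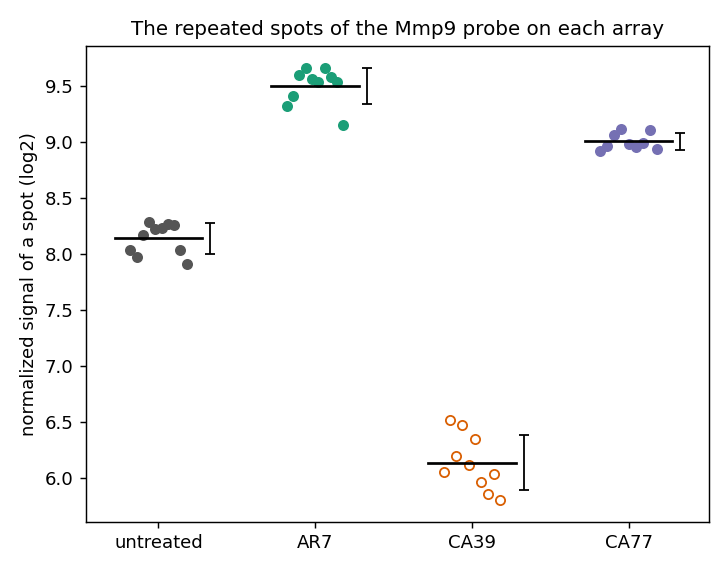
Normalized signal (log2, vertical axis) of the spots of the Mmp9 probe on each array, 10 spots on untreated, AR7 and CA39 and 9 on CA77, where bars are the mean, error bars are ± SD over spots and open symbols are spots not well above background. The 4 arrays do not overlap, and the spread is that within an array and not between cultures.

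Mmp2, the other gelatinase, had log2 levels of 12.86 on untreated, 12.63 with AR7, 13.49 with CA39 and 12.63 with CA77. It was 0.62 higher than untreated with CA39 (1.54-fold). It was 0.23 lower with AR7 and 0.24 lower with CA77 on the log2 scale, slightly more than the tolerance. Spots near the Mmp2 probe had a median difference of -0.11 with AR7, and the Mmp2 value was -0.13, within the tolerance, once this was subtracted. Thus the gelatinases went opposite ways with CA39, and the differences were not tested.

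Mmp14, the membrane-type enzyme that activates pro-MMP2, had log2 levels of 10.62 on untreated, 10.40 with AR7, 11.32 with CA39 and 10.38 with CA77. Its differences from untreated (0.70 with CA39, -0.22 with AR7 and -0.24 with CA77) lay close to those of Mmp2. In both genes AR7 and CA77 were within the tolerance of each other, and CA39 was the highest array.

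Of the stromelysins, Mmp10 had log2 levels of 7.18 on untreated, 8.39 with AR7, 5.73 with CA39 and 7.23 with CA77, from 1 spot per array. The net signal was 166, 383.5, 72 and 149 scanner units. AR7 stood alone above the others, CA77 and untreated did not differ beyond the tolerance, and CA39 was not well above background. The difference from untreated was 1.22 with AR7 (2.32-fold), 0.06 with CA77 and at most -0.30 with CA39 (at least 1.23-fold lower). The AR7 value fell to 0.99 with a background offset of 50, under the threshold, and rose to 1.69 with the quantile-normalized processed signal.

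Mmp3, a close relative of Mmp10, gave log2 signals of 5.92, 5.84, 5.47 and 6.12 (untreated, AR7, CA39 and CA77), none of which was well above background. Mmp13, an interstitial collagenase, gave 5.28, 5.37, 5.56 and 5.61, likewise not well above background. These signals set no fold for either gene. The AP-1 motif and TATA box shown above for Mmp10 were thus also present in genes that were not detected.

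Mmp11, a stromelysin that is activated inside the cell by furin-like enzymes, differed least among the enzymes detected on all 4 arrays. Its brighter probe gave 12.57 on untreated, 12.53 with AR7, 12.34 with CA39 and 12.38 with CA77, whereas a second probe gave 11.59, 11.66, 11.43 and 11.53. CA39 was the lowest array by each probe, 0.23 and 0.17 under untreated on the log2 scale. The AR7 difference was within the tolerance by each probe, and the CA77 difference by the second probe only (-0.19 and -0.06).

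**Figure D3:**
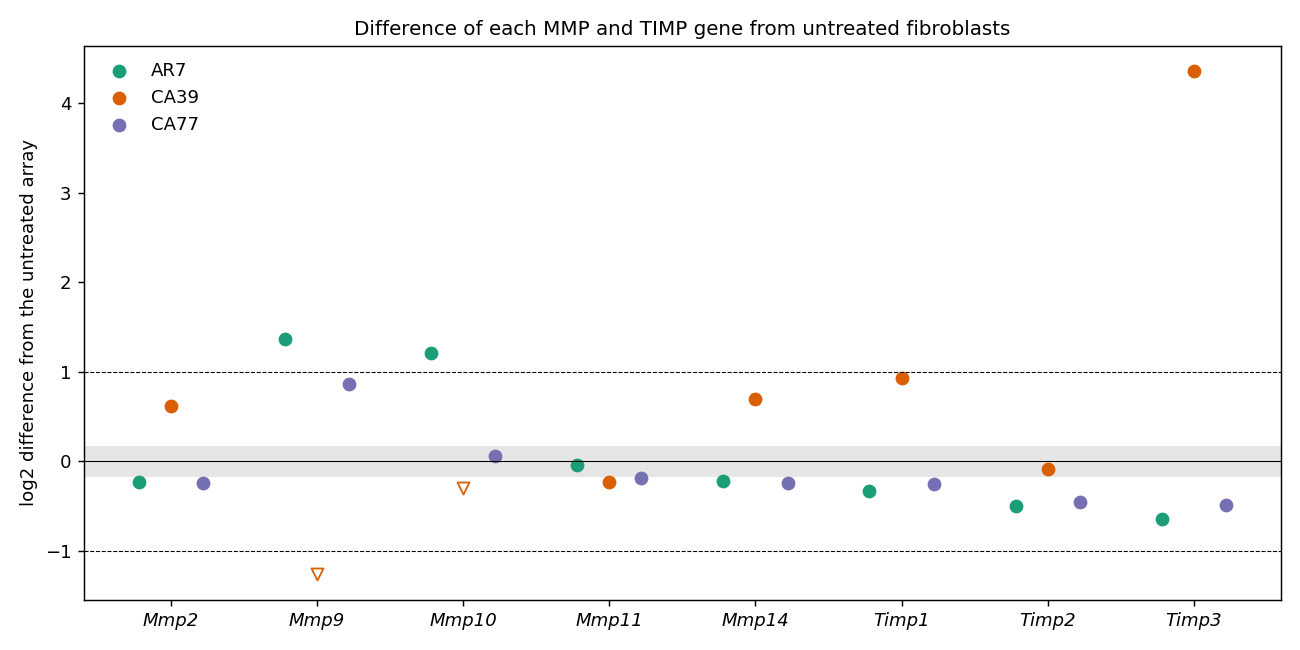
Log2 difference of each detected MMP and TIMP gene from the untreated array (vertical axis) with AR7, CA39 and CA77, where open triangles are upper bounds for probes not well above background with CA39, the grey band is the tolerance of ± 0.16 and dashed lines mark 2-fold. Past 2-fold are Mmp9 and Mmp10 with AR7, and Timp3 (4.36) and Mmp9 (bound of -1.26) with CA39.

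Counted over the 8 genes compared, AR7 had 2 past 2-fold higher and 0 lower, where 1.81% of 27855 genes were past 2-fold higher and 0.384% lower. CA39 had 1 higher and 1 lower, against 3.71% and 1.11% of 27894 genes. CA77 had 0 either way, against 1.94% higher and 0.537% lower of 28126 genes. These background counts depended on the processing. With CA77 they were 547 higher and 151 lower here and 824 and 436 with 75th percentile scaling. With CA39 they were 1036 and 311 here and 1203 and 564 with that scaling. With AR7, where 0.384% were lower here, 702 were higher and 188 lower with that scaling, and 561 higher and 294 lower with the floor at the lowest detected signal. The members had a median difference of -0.23 with AR7 and -0.24 with CA77. With CA39 it was 0.66 over the 6 genes detected on both arrays, or 0.27 with the bounds for Mmp9 and Mmp10. Over all genes measured it was -0.01, -0.02 and -0.02. These medians describe the list and test nothing.

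The compounds were used at 1 dose and 1 time, so the 3 pairs of compounds were also compared directly. CA77 and AR7 were closest, with 6 of 8 members within the tolerance, as were 63.4% of the 21561 genes measured on both arrays. The exceptions were Mmp10, lower with CA77 by 1.16 (2.23-fold), and Mmp9, lower by 0.50 (1.41-fold). The share of all genes past 2-fold either way was 2.58% for this pair, and Mmp10 fell to -0.95 with a background offset of 50. With 1 array each, members within the tolerance are not shown to respond alike.

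Against AR7, 0 of the 6 members measured with CA39 were within the tolerance, and against CA77 1 of 6 was. Over all genes measured, 42.4% and 44% were. Timp3 was 32.0-fold above AR7 and 28.7-fold above CA77 (differences of 5.00 and 4.85), the 3rd highest of 20627 and the 5th highest of 21226 genes measured. Timp1 was 2.40-fold above AR7 and 2.27-fold above CA77. Mmp14 stood above AR7 by 0.92 and CA77 by 0.95, and Mmp2 by 0.86 each, all under 2-fold, although Mmp14 against CA77 reached 1.01 with the quantile-normalized processed signal. In the other direction Mmp9 was at least 6.17-fold lower than with AR7 and at least 4.37-fold lower than with CA77. Mmp10 was at least 2.86-fold lower than with AR7 and at least 1.28-fold lower than with CA77. Mmp11 differed from AR7 by -0.19 and was within the tolerance of CA77. Over all genes, 6.15% were past 2-fold between CA39 and AR7 and 6.22% between CA39 and CA77. These comparisons share the CA39 array and are not independent of each other.

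Other genes of the system were taken from lists. Of 15 other MMP genes with a probe, 8 were detected on no array, and 0 were past 2-fold with any compound, although 1 was higher with CA39 when the processed signal or the series table was used. Mmp17, a membrane-type MMP, was nearest, at 0.90 above untreated with CA39, and Mmp23 lay about 0.4 under untreated with each compound (-0.41, -0.39 and -0.38). Timp4, the remaining TIMP, was detected on all arrays and was lower by 0.46 with AR7 and by 0.27 with CA39, while CA77 was within the tolerance (0.06).

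Among 11 inhibitors, activators and partners with a probe, 8 were compared, and 0 were past 2-fold with AR7 or CA77. With CA39, Reck, a membrane-anchored MMP inhibitor, was higher by 1.43 by its brighter probe, while a second Reck probe was at 6.61 on untreated and not well above background with CA39 (6.69). Lrp1, the receptor that clears MMPs and TIMPs from the medium, was higher by 1.11. Lcn2, a secreted lipocalin that forms a complex with MMP9, was lower by 4.48, with log2 levels of 14.07 on untreated, 13.98 with AR7, 9.59 with CA39 and 13.57 with CA77. Thus Lcn2 and Mmp9 were both lowest with CA39. Lcn2, unlike Mmp9, was not higher than untreated with AR7 or CA77 (-0.10 and -0.50).

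Of 13 ADAM and ADAMTS genes compared, a related protease family of which Timp3 can inhibit some members, 4 were past 2-fold higher with CA39 and 1 lower, where 3.71% and 1.11% of all genes were. The lower count was 2 with the processed signal or the series table. Adamts2, which trims procollagen, was higher by 3.67, and the aggrecan-cutting Adamts5 and Adamts1 by 2.57 and 2.38. Second probes gave smaller values for Adamts2 (1.54) and Adamts5 (1.52). A second Adamts12 probe was detected with CA39 alone, at least 1.05 above untreated, while its brighter probe was detected on no array. Adam19 was higher by 1.05. Adam8 had a difference of 1.06 for AR7, 0.99 for CA77 and -1.15 for CA39, and AR7 and CA77 were within the tolerance of each other. It was the only gene of this list past 2-fold with AR7, and 0 were with CA77. With the processed signal or the series table, AR7 had 0.

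In the plasminogen system, whose proteases can activate pro-MMPs, the urokinase receptor Plaur was 0.45 above untreated with AR7 and 0.47 under it with CA39 on the log2 scale. Of 7 AP-1 subunits, all detected, Jun (-1.12) and Fosl1 (-1.04) were past 2-fold lower with CA39, where 1.11% of all genes were. Fosl1 was higher by 0.53 with AR7 and within the tolerance with CA77 (0.15), and Jun was within the tolerance with AR7 (0.07). Junb was also lower with CA39 (-0.48), Jund (0.43) was higher, Fos (-0.16) was within the tolerance, and Fosl2 differed by 0.23 by 1 probe and -0.51 by another. With AR7, Fos was lower by 0.39.

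**Figure D4:**
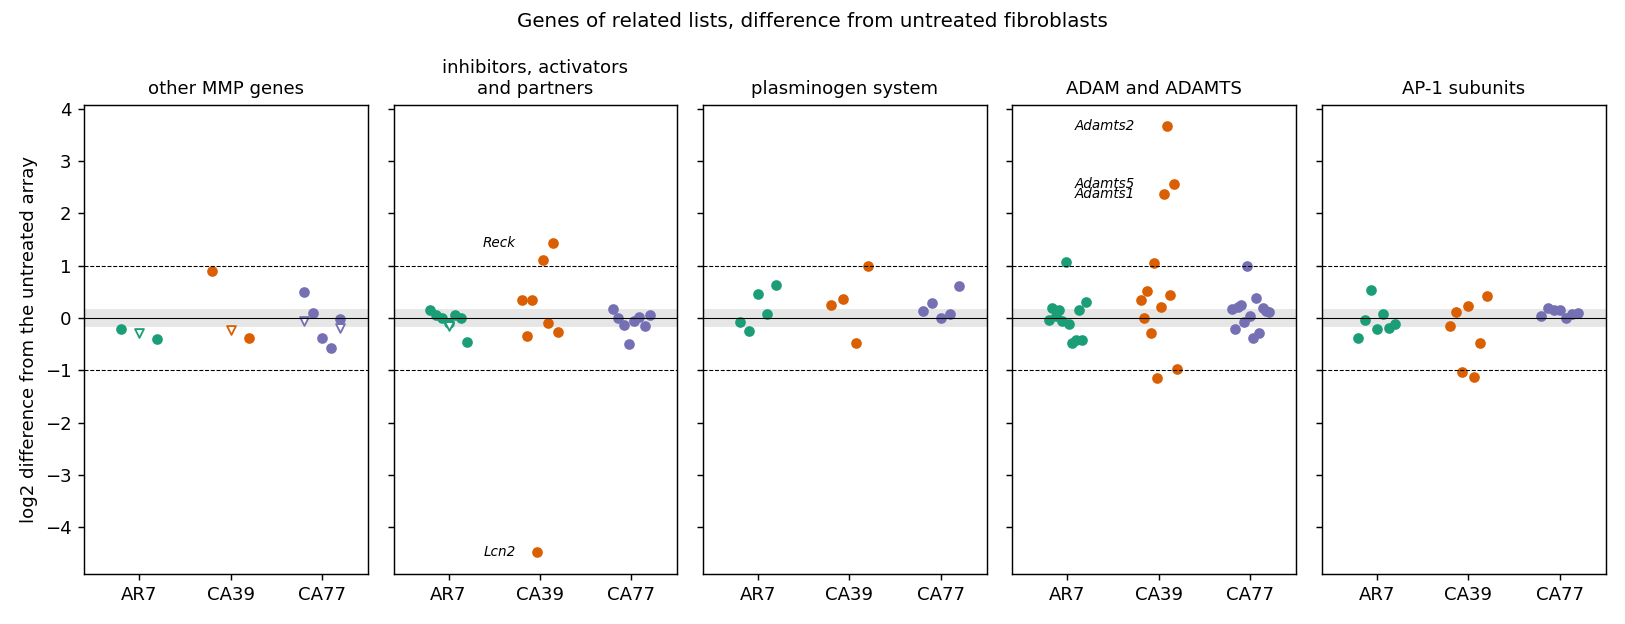
Log2 difference from the untreated array (vertical axis) of the genes of 5 related lists with AR7, CA39 and CA77, where each point is 1 gene, open triangles are bounds, the grey band is the tolerance and dashed lines mark 2-fold. Most genes past 2-fold are on the CA39 array, led by Adamts2 (3.67) and Lcn2 (-4.48).

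Marker levels moved with CA39 as well. Of 8 fibroblast markers, 4 were past 2-fold higher with CA39 (Col1a1, Fn1, Pdgfra and, as a bound, Pdgfrb), where 3.71% of all genes were. Over the 7 detected on all 4 arrays, log2 levels summed to 106.44 with CA39 and to between 98.32 and 101.13 on the other arrays. With AR7, Col1a1 was lower by 1.05. Of 4 epithelial markers, Krt8 was higher by 2.39 and Epcam was detected with CA39 alone, while Cdh1 was detected on no array. Krt8 and Krt18, the 2 detected on all 4 arrays, summed to 17.73 with CA39 and to between 13.63 and 14.54 on the other arrays. The adipocyte marker Fabp4 was lower by 1.58 with CA39. Of the endothelial, macrophage and leukocyte, and muscle markers, 0 were past 2-fold from untreated with any compound. The part of these shifts in the MMP and TIMP differences was not tested.

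Finally, 13018 genes with a symbol and detected on all 4 arrays were ranked by the Euclidean distance of their 3 differences from untreated to those of a member. The nearest to Timp3 were Emb, at a distance of 0.24, Thbs1 (0.68) and Adamts2 (0.75), with CA39 differences of 4.22, 3.69 and 3.67. The nearest to Timp1 were Utp14b (0.05), Sox9 (0.06) and Nr2f2 (0.06). The nearest to Mmp14 were Mlana (0.05), Narf (0.05) and Mmp2 (0.08), so Mmp2 was the 3rd nearest of all genes to Mmp14. The distances rest on 3 differences that share the untreated array.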

How the data were processed

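Total RNA of 4 NIH-3T3 cultures was labelled with Cy3 by the authors, hybridized to Agilent mouse arrays and read with Feature Extraction 10.7.3.1. Used here were the deposited linear spot intensities with their local backgrounds and quality marks. The deposited series table held the background-subtracted intensity at every spot (0 of 62976 differed), with no scaling. The study's methods name RMA values, which these are not. Its treatment with BMS614 was not analysed here.

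Median intensity and background were corrected with normexp (offset 0) in limma 3.58.1 and R 4.3.3 over all spots. Without controls and marked spots (142 to 328 per array), the values were quantile normalized, and the log2 values of a probe's spots were averaged. Values not well above background were raised to the 1st percentile of detected signal (log2 5.87 for untreated, 6.82 for AR7, 6.88 for CA39, 6.26 for CA77), unless higher, and folds against them are bounds. The brightest probe stood for a gene. Past 2-fold means a log2 difference of at least 1 with the higher side detected.

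Accessions were matched without versions to RefSeq (GRCm38.p6), which named 27512 probes with 20895 symbols. The array design cites mm9, so no probe coordinates are given. Each group is 1 array, so no test was run. The number of arrays limits the precision.

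Named were all members, list genes past 2-fold and some genes whose probes disagree. Among members detected on all 4 arrays, the 3 nearest genes to each of the 3 with the largest measured differences were also named. Probes disagreed too for Cd44 with AR7 (0.06, 0.24 and 0.37) and for Csf1r with CA77 (-0.88, -0.22 and 0.22), against untreated. Timp4, Mmp17, Mmp23, Plaur, Junb, Jund, Fosl2 and Fos were named after their values were seen. The members and lists were chosen with earlier results of these data known. The differences were computed by steps tested on simulated data. Alternatives are given with the closing observations. A result of the plasminogen list is not reported here.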

Additional observations from a re-analysis of the deposited data

Results flagged for a closer look

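Opposite directions from the same untreated array, with at least 1 side past 2-fold, were found for 3 members. Mmp9 was 1.36 above untreated with AR7 and at most -1.26 with CA39 (log2, a bound), and it was 0.87 above untreated with CA77, against the same bound of -1.26. Mmp10 was 1.22 above untreated with AR7 and at most -0.30 with CA39, where it was not well above background. Timp3 was 4.36 above untreated with CA39, while it was at -0.64 with AR7 and at -0.49 with CA77. Under 2-fold, Timp1 (0.93), Mmp2 (0.62) and Mmp14 (0.70) were also above untreated with CA39. They were below it with AR7 (-0.33, -0.23 and -0.22) and CA77 (-0.25, -0.24 and -0.24). Each direction rests on 1 array, so the difference between compounds was not tested.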

How the results depend on the processing

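No paired analysis was possible because each group is 1 array and the labels give no replicate numbers. No member's called difference changed sign under any alternative run, and 418 of 468 differences of members moved by less than the tolerance. Part of the 468 could not move, since changes of floor or filter leave a measured difference as it is. Averaging the probes of a gene can change only Mmp11 and Timp2. Over the alternatives Timp3 with CA39 stayed between 4.22 and 4.49, Mmp9 with AR7 between 1.22 and 1.51 and Timp1 with CA39 between 0.81 and 0.93. With a background offset of 50, 1 member was past 2-fold higher with AR7, 0 lower with CA39 and 0 lower in CA77 against AR7, since Mmp9 and Mmp10 fell just under the threshold. With the floor at the lowest detected signal, 2 were lower in CA39 against CA77. With no floor and no filter, 2 were lower with CA39 and 2 in CA39 against CA77, and the medians were 0.10 for CA39, 0.31 for CA39 against AR7 and 0.17 for CA39 against CA77. Restricting to genes detected on all 4 arrays removes Mmp9 and Mmp10 by construction, which left 0 higher with AR7, 0 lower with CA39, 0 lower in CA77 against AR7 and 0 lower in CA39 against AR7 and against CA77. At a threshold of 1.5-fold, 1 was lower with AR7, 4 were higher with CA39 and 1 was higher with CA77. In CA39 against AR7, 4 were higher, and 4 were in CA39 against CA77. No share of all genes past 1.5-fold is given beside these counts, so they describe the list only. The 75th percentile scalings moved the median of all genes with CA39 from -0.02 to -0.10. Signal over background limits Mmp9 and Mmp10 with CA39 to bounds and leaves Mmp3 and Mmp13 without a fold.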
